A study of Mus musculus with 3 samples.

Results

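The vacuolar ATPase (V-ATPase) subunits described here are 10 genes of the 31053 counted in the files, chosen by their symbols: Atp6v1a, Atp6v1b2, Atp6v1e1, Atp6v1e2, Atp6v1h, Atp6v0a1, Atp6v0c, Atp6v0d1, Atp6ap1 and Atp6ap2. All 10 were found in the files. The question was how Atp6v1e2, the testis form of subunit E, and its partner Atp6v1e1 change over germ cell stages, beside the other subunits, and whether the levels in mutants differ from wild type. Single-cell RNA-seq was done on testicular cells of C57BL/6 mice, with 1 library of WT mice, 1 of GRTH-KO mice (KO), which lack Ddx25, the gene for the RNA helicase GRTH, and 1 of GRTH-KI mice (KI), knock-in mice that carry the human GRTH gene with a missense mutation and lack the phosphorylated form of GRTH. The labels give 1 mouse of 8 weeks for each genotype, whereas the methods of the study speak of pooled testes and a wider range of ages.

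The V-ATPase is a rotary proton pump that acidifies lysosomes, the Golgi complex, secretory vesicles and the acrosome, the vesicle over the sperm head that forms from the Golgi in round spermatids. Its cytosolic V1 sector binds and splits ATP (subunits A and B) and is tied to the membrane by peripheral stalks of subunits E and G, with C and H at their base, whereas the membrane sector V0 carries the protons (the ring of c subunits and subunit a) and couples to the rotor through subunit d. Several subunits have more than 1 gene, and Atp6v1e2 is known as a testis form of subunit E that is found at the acrosome.

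On GRCm38, Atp6v1e1 spans bases 120794305 to 120822793 of chromosome 6 and Atp6v1e2 bases 86944109 to 86947897 of chromosome 17, each on the minus strand. Their coding sequences are 681 bases each and are identical at 472 bases (69.3%), with 26 bases as the longest identical run. The coding sequence of Atp6v1e1 spans 9 exons and that of Atp6v1e2 lies in 1 exon. The stretch of coding bases 235 to 320, from GENCODE transcripts, is shown for both genes because Atp6v1e2 was measured by qRT-PCR over it. Capitals mark the 33 of 86 bases at which the genes differ.
Atp6v1e2: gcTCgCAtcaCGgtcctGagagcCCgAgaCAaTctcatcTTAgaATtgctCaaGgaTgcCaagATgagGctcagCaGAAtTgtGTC
Atp6v1e1: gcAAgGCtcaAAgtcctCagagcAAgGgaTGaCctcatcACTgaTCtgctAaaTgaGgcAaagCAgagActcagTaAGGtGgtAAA
The forward primer GCTCGCATCACGGTCCTGAGA and the reverse primer GACACAATTCTGCTGAGCCTCA matched Atp6v1e2 with 0 mismatches, and their best matches in Atp6v1e1 had 7 and 9 mismatches. UMIs were read from the 3′ end of transcripts, so the isoforms were told apart by gene and not by this stretch.

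The 250 bases before the start of each of the pair, from RefSeq on GRCm38.p6, are shown because the levels of these genes ran in opposite directions over the stages. The Atp6v1e1 window is chr6:120822699-120822948 and the Atp6v1e2 window is chr17:86947888-86948137, both on the minus strand and written 5′ to 3′. The gene spans given above, from GENCODE, end inside these windows, at 120822793 and 86947897. By that annotation the last bases of each window are transcribed, and the TATAAA and CCAAT matches of Atp6v1e1 lie in this part. Capitals mark matches on either strand to the TATA box letters TATAAA, to the CCAAT box or to the GC box letters GGGCGG, and the TATAAA matches on both strands overlap.
Atp6v1e1: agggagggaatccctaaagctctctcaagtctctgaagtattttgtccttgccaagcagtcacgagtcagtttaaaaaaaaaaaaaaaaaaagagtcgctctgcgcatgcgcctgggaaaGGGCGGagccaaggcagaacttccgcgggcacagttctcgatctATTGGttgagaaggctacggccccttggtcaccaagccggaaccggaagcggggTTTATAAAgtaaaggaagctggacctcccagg
Atp6v1e2: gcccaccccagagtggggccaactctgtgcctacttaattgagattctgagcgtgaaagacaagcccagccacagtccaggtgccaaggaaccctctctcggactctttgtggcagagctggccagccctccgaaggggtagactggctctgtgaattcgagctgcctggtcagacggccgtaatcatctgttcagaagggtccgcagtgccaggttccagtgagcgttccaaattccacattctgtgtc
The letters of TATAAA were in 12.4% of the 32851 windows of that length, those of CCAAT in 33.9% and those of GGGCGG in 32.7%. The Atp6v1e2 window held none of these letters and also neither TGACGTCA, the binding element of CREB and CREM (in 1.55% of windows), nor its TGACG part (in 17.8%). RefSeq windows were found for 8 of the 10 subunits.

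The files held 82973909, 91388296 and 73150373 UMIs in WT, KO and KI, and 5864, 4053 and 1571 cells were kept, with medians of 5126, 4019 and 11748 UMIs per cell. The median number of genes per cell was 1564.5, 2231 and 3971. The median share of mitochondrial UMIs was 0.0582% for WT, 1.64% for KO and 1.33% for KI. WT thus stood apart from both mutants in this share, and its bearing on the ratios below was not tested. Kept cells of WT and KO shared 16 barcodes, those of WT and KI 37 and those of KO and KI 8, where 3.5, 1.36 and 0.937 would be shared if the lists were unrelated. Classes were named from marker genes with the ending -like: early meiotic-like cells (cluster 12), spermatocyte-like cells (SP-like, clusters 2, 6, 7, 11 and 13), round spermatid-like cells (RS-like, clusters 1 and 9) and elongated spermatid-like cells (ES-like, clusters 4, 5 and 8). Spermatogonia formed no cluster of their own at the resolution used. Cluster 3, of 388 WT, 699 KO and 113 KI cells, was left unnamed. RS-like cells numbered 1034, 887 and 337 in WT, KO and KI, and each of the 11 RS markers had UMIs in all 3 libraries. Of the ES markers, which are led by protamine and transition protein transcripts, RS-like cells held 39640 CPM for WT, 13160 for KO and 9658 for KI, where CPM means UMIs per 1e6 UMIs of the summed cells. Values given without a genotype stand in the order WT, KO and KI. All values are UMIs summed over the cells of a class or cluster in a library. With 1 library per genotype no difference has a replicate and no test was possible, and the 95% intervals (exact Poisson for sums, exact Clopper-Pearson for shares, exact conditional binomial for ratios) cover counting error only. Since 1 UMI counts 1 transcript end, levels of different genes were not divided by length.

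Ddx25, the gene removed in KO, had 846 UMIs in RS-like cells of WT, 0 in KO and 607 in KI, and in SP-like cells 5608, 11 and 3010. KO held 0 to 0.704 CPM of Ddx25 in early meiotic-like, SP-like, RS-like and ES-like cells, as its label says. Empty barcodes of KO held 75 UMIs of Ddx25, at 8.39 CPM (6.60 to 10.5), more than these cells did, against 145 CPM for WT and 117 for KI, and where these UMIs came from was not tested. In KI reads were counted as mouse Ddx25, and whether they came from mouse or human sequence was not tested, so that they are no check of that label.

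Most UMIs of subunit E were of Atp6v1e1 in clusters 12, 6 and 11 and of Atp6v1e2 in clusters 2, 9 and 8 in every library. In the SP-like clusters 7 and 13 most were of Atp6v1e2 in WT and KO and of Atp6v1e1 in KI. Cluster 2 was named SP-like, yet none of its 10 leading genes was an SP marker (likewise, clusters 11 and 13, also SP-like, and cluster 9, RS-like, had no marker of their own class among these), and at a Leiden resolution of 0.6 the RS-like class took 314 of its 734 WT cells, 255 of its 605 KO cells and 116 of its 277 KI cells. Atp6v1e1, the E subunit of most tissues, was at 80.2 CPM for WT, 60.6 for KO and 77.5 for KI in early meiotic-like cells and at 51.5, 50.1 and 49.2 CPM in cluster 6, SP-like cells with Piwil1 among their leading genes. Atp6v1e1 overlaps Slc25a18 on the other strand, and reads of this kit keep their strand. It was at 11.6, 11.6 and 13.04 CPM in cluster 2, the SP-like cells with RS markers, and at 0.153 CPM (1 UMI) for WT, 2.98 (12 UMIs) for KO and 1.51 (6 UMIs) for KI in cluster 9, the RS-like cells of high UMI totals. Among the named germ cell clusters the level was thus highest in early meiotic-like cells in each library, with overlapping intervals of the next cluster in KO and KI, and the RS-like and ES-like classes were both low in WT, at 1.15 and 0.95 CPM.

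Atp6v1e2 took the opposite course. In early meiotic-like cells it was at 14.1 CPM (8.06 to 22.9) for WT, 23.2 (16.0 to 32.6) for KO and 8.76 (4.67 to 15.0) for KI. In cluster 6 it was at 5.57, 7.71 and 2.37 CPM and in cluster 11, further SP-like cells, at 5.16, 5.599 and 1.06 CPM. Cluster 2 held 245 CPM for WT, 259 for KO and 217.5 for KI, and cluster 9 held 619 (600.0 to 638), 668 (643 to 694) and 687 (661 to 713). Over these clusters, in an order of stage set by hand, the step came between clusters 11 and 2. Cluster 9 had the highest level of the named germ cell clusters of at least 20 cells in each library. Its interval did not overlap with that of the next, cluster 8. In the order of levels the intervals of neighbours overlapped for clusters 8 and 1, 4 and 13, and 13 and 12 of WT, for clusters 5 and 2, 2 and 1, 7 and 13, and 13 and 12 of KO, for clusters 1 and 2, 2 and 5, 7 and 12, 12 and 13, and 13 and 6 of KI, and for clusters 6 and 11 of each library. The further SP-like clusters 7, of low UMI totals, and 13 stood lower than cluster 2: cluster 7 at 129, 61.1 and 18.0 CPM and cluster 13 at 27.6, 48.9 and 3.60 CPM for WT, KO and KI.

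**Figure D1:**
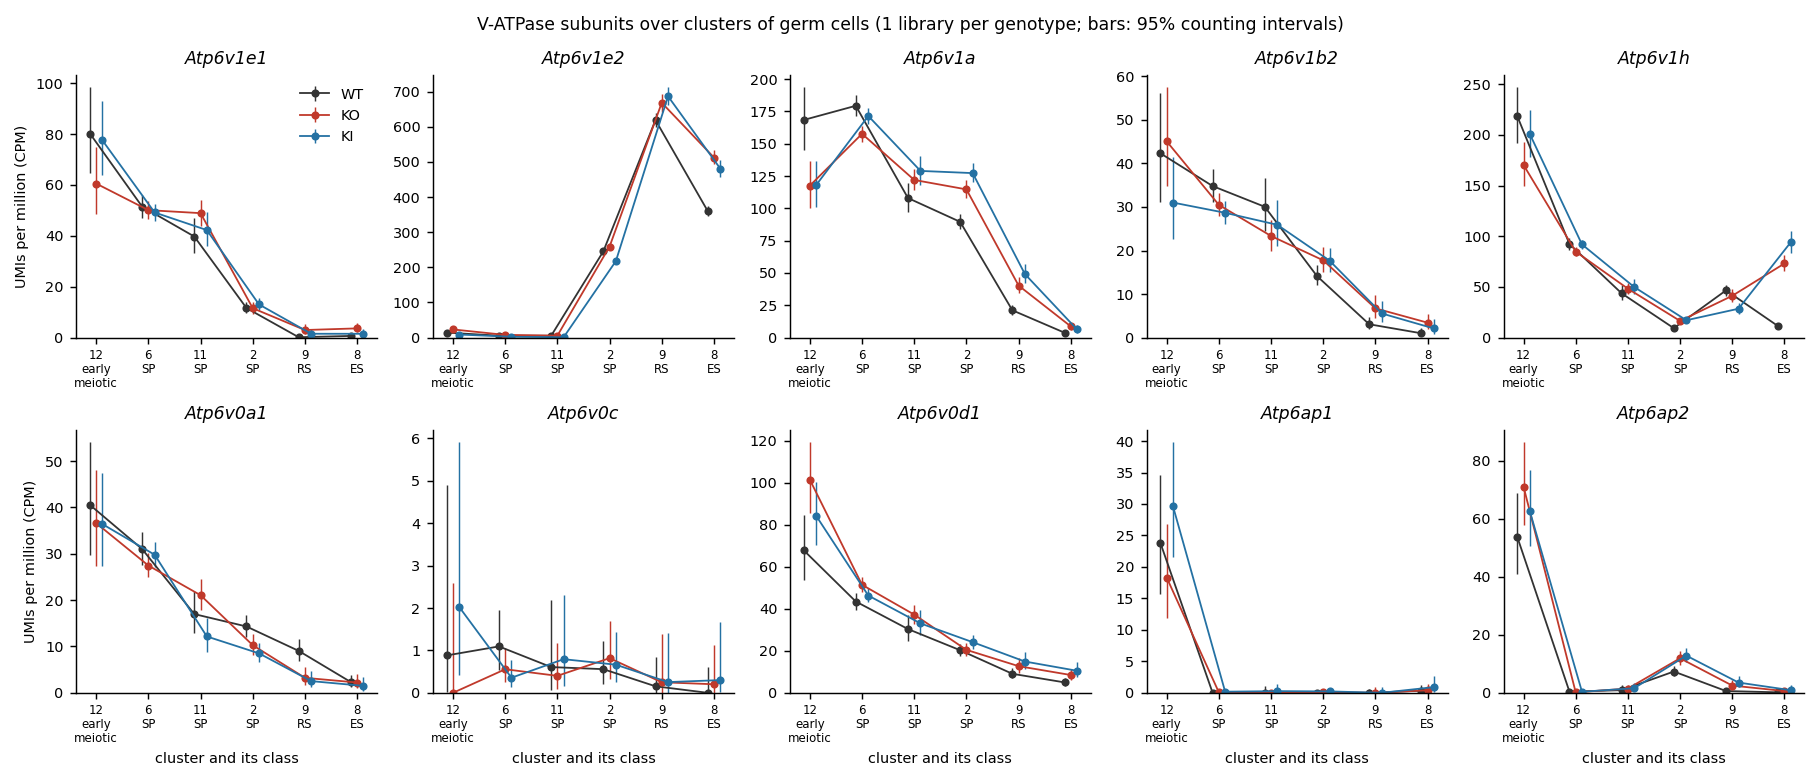
Level of each of the 10 V-ATPase subunits in CPM (y axis, from 0, with its own scale in each panel) over 6 clusters of germ cells (x axis), for WT, KO and KI. The order of stage of the clusters was set by hand, and the further germ cell clusters are not shown. Points are sums over the cells of 1 library and bars are 95% counting intervals. Atp6v1e2 was between 1.06 and 23.2 CPM before cluster 2 and between 619 and 687 CPM in cluster 9, whereas the other subunits were highest in cluster 12 or 6 in each library, except Atp6v0c, which stayed at or under 2.02 CPM.

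As a share of the UMIs of both E genes, which needs no scaling between libraries, Atp6v1e2 made up 15.0% (16 of 107 UMIs) for WT, 27.7% for KO and 10.2% for KI in early meiotic-like cells and 9.76%, 13.3% and 4.60% in cluster 6. The share was 95.5% for WT, 95.7% for KO and 94.3% for KI in cluster 2. In RS-like cells it was 99.8% for WT (4456 of 4465 UMIs, 99.6 to 99.9), 99.2% for KO (98.8 to 99.5) and 99.8% for KI (99.5 to 99.9). A share so near its upper end leaves little room to show differences in Atp6v1e1 between libraries. The intervals of WT and KO did not overlap, and the levels of Atp6v1e1 are given below.

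The low Atp6v1e2 levels before cluster 2 were no higher than those in a cell type that should lack the gene, as far as the counts tell. Empty barcodes, which are taken to hold RNA free in the suspension, had 442 CPM of Atp6v1e2 for WT, 394 for KO and 443 for KI, and Leydig-like cells, a somatic type, had 0 UMIs for WT (an upper bound of 28.2 CPM), 33.8 CPM for KO and 14.4 CPM for KI. The intervals of early meiotic-like and Leydig-like cells overlapped in each library, and those of clusters 6 and 11 lay below the Leydig-like interval in KO and KI and under its upper bound in WT. Cluster 7 lay above that bound in WT, at 129 CPM (114 to 145), and its intervals overlapped with the Leydig-like ones in KO and KI. Sertoli-like cells, with medians of 1478 to 1553 UMIs per cell, held 121, 147 and 106 CPM. The part of free RNA in these values was not tested.

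Per cell, cluster 9 held 11.9 UMIs of Atp6v1e2 for WT, 15.2 for KO and 32.8 for KI, at medians of 13377, 15856 and 32267 UMIs of all genes. At least 1 UMI of Atp6v1e2 was found in 99.7% of the WT cells of cluster 9 and in all of the KO and KI cells. After each cell was thinned to 1000 UMIs, which left out none of these cells, the share was 48.8% (43.4 to 54.3) for WT, 49.2% (41.6 to 56.8) for KO and 39.8% (29.2 to 51.1) for KI, with overlapping intervals. In Leydig-like cells thinned in the same way UMIs of Atp6v1e2 were in 0 of 15, 0 of 21 and 0 of 20 cells (upper bounds of 21.8%, 16.1% and 16.8%), from medians of 6894, 10413 and 18945 UMIs. In cluster 6 the thinned share was 0.647% for WT, 0.454% for KO and 0% for KI (0 of 201 cells, which allows up to 1.82%).

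In RS-like against SP-like cells of WT, Atp6v1e2 was 5.03-fold higher (4.80 to 5.27), at 569 against 113 CPM. The ratio was 7.72 (7.32 to 8.14) in KO and 9.30 (8.79 to 9.85) in KI, and it rests on cluster 2, which held 2640 of the 2996 Atp6v1e2 UMIs of SP-like cells in WT. On the log2 scale with 1 CPM added the WT ratio was 2.32, and 4.59 with cluster 2 left out, an alternative chosen after seeing the data. Of the 10 subunits, 9 had at least 20 UMIs over both classes in WT, and of these 6 were at least 1.5-fold lower in RS-like cells, 1 was higher and 2 were neither. A gene that reached 20 UMIs through 1 side alone was apt to differ, here and in the counts below, so that these counts are a description. Atp6v0c reached it through SP-like cells alone (22 UMIs against 3) and was neither, at 0.83 and 0.38 CPM before 1 CPM was added. Of all 16687 genes compared, 48.0% were lower and 30.6% higher by that measure, and the median log2 ratio was −1.25 for the subunits against −0.50 for all genes. Atp6v1e2 was the subunit that was higher.

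The subunits of the catalytic head were lower after the same step. Atp6v1a, subunit A, which holds the sites where ATP is split, was at 168 CPM for WT, 118 for KO and 118 for KI in early meiotic-like cells and at 179, 158 and 171 CPM in cluster 6. It was at 89.6, 115 and 127 CPM in cluster 2 and at 21.2, 40.3 and 49.2 CPM in cluster 9. Its level from SP-like to RS-like cells was 5.08-fold lower in WT, 3.18-fold lower in KO and 3.14-fold lower in KI. Atp6v1b2, the B subunit of most tissues, went from 34.8, 30.5 and 28.7 CPM in cluster 6 to 3.07, 6.71 and 5.55 CPM in cluster 9.

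Its partner Atp6v1b1, known as the B subunit of acid-secreting epithelia, went the other way at a low level. It made up 0.285% of the UMIs of both B genes in cluster 6 of WT (1 of 351), 1.20% in KO and 0% in KI (0 of 483). The share was 36.9%, 32.1% and 32.5% in cluster 2 and 78.3% (68.4 to 86.2) for WT, 62.0% (49.7 to 73.2) for KO and 71.4% (60.0 to 81.2) for KI in cluster 9. Atp6v1b1 itself was at 11.04, 10.9 and 13.9 CPM in cluster 9, against 0.0994, 0.370 and 0 CPM in cluster 6, and at 5.82, 5.82 and 6.79 CPM in empty barcodes. In the whole RS-like class Atp6v1b1 had 85, 48 and 64 UMIs against 24, 41 and 24 of Atp6v1b2, so that the counts of the pair were apart in WT and KI, while the interval of the KO share, 43.0 to 64.6%, included an even split.

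**Figure D2:**
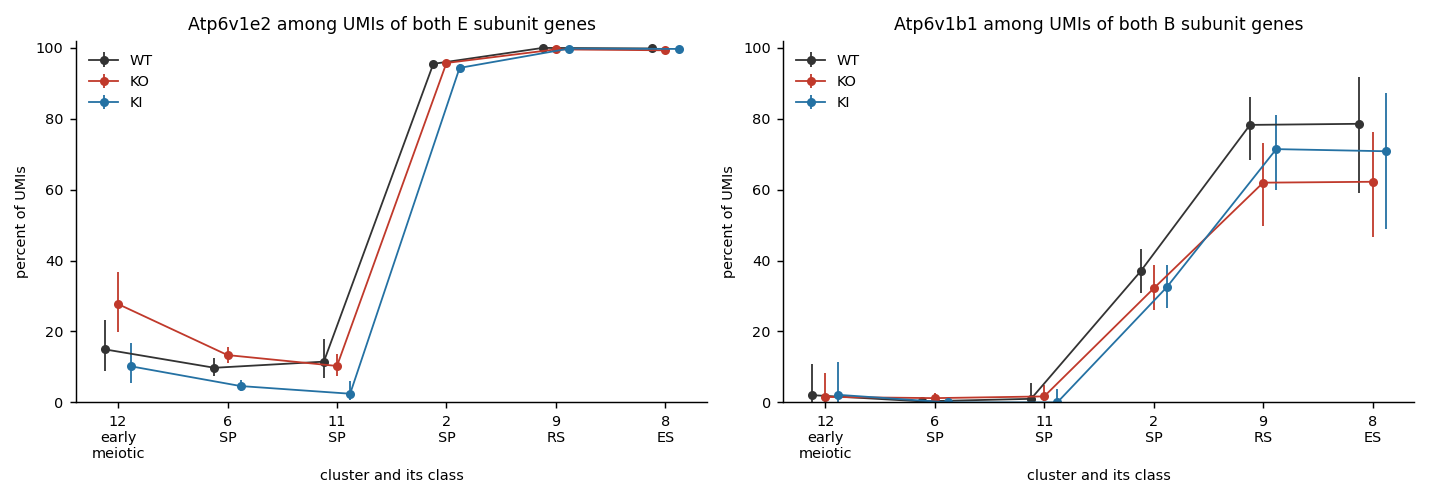
Percent of UMIs (y axis, 0 to 100) that fell on Atp6v1e2 among both E subunit genes (left) and on Atp6v1b1 among both B subunit genes (right). Values are over 6 clusters in an order of stage set by hand (x axis) for WT, KO and KI, with 95% Clopper-Pearson intervals. The E share passed from at most 11.5% in cluster 11 to at least 94.3% in cluster 2, and the B share reached 62.0 to 78.3% in cluster 9.

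Atp6v1h, the regulatory subunit H, had a low point between meiosis and spermatids. It was at 219 CPM for WT, 170 for KO and 201 for KI in early meiotic-like cells, at 92.4, 84.8 and 92.0 CPM in cluster 6 and at 9.29, 16.5 and 17.1 CPM in cluster 2. In cluster 9 it was at 46.6, 41.3 and 28.5 CPM, so that each library was higher there than in cluster 2. Empty barcodes held 30.45, 41.9 and 52.9 CPM, below cluster 9 in WT alone, and the part of free RNA in this rise was not tested. Of clusters 12, 6, 11, 2 and 9, the lowest was cluster 2 in all 3 libraries.

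Of the V0 sector, Atp6v0d1 and Atp6v0a1 were lower at each later cluster of 12, 6, 11, 2 and 9 in WT. Atp6v0d1, the d subunit of most tissues, went from 67.9 CPM for WT, 101 for KO and 84.3 for KI in early meiotic-like cells to 9.05, 12.7 and 14.9 CPM in cluster 9. Its partner Atp6v0d2 had 5, 6 and 6 UMIs in RS-like cells of WT, KO and KI against 1, 0 and 1 in SP-like cells. Atp6v0a1, an a subunit, went from 40.6, 36.6 and 36.4 CPM to 9.05, 3.23 and 2.52 CPM. Of the UMIs of the 4 genes of subunit a, Atp6v0a1 made up 79.7% (68.8 to 88.2) for WT, 37.1% (21.5 to 55.1) for KO and 34.5% (17.9 to 54.3) for KI in cluster 9, and Atp6v0a2 18.9%, 57.1% and 58.6%, from 74, 35 and 29 UMIs. In cluster 6 the share of Atp6v0a1 was 59.1%, 59.4% and 60.2%, so that WT and the mutants lay apart in cluster 9 and together in cluster 6.

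Atp6v0c, the proton-carrying c subunit, gave 85 UMIs in all kept cells and was at most 2.02 CPM in any named germ cell cluster of at least 20 cells. In the unnamed cluster 3 of WT it was at 2.06 CPM (2 UMIs). In somatic cells it gave few UMIs too, with 0, 0 and 1 UMIs in Leydig-like cells, where the upper bounds were 28.2, 17.8 and 13.4 CPM, and 2, 2 and 1 UMIs in Sertoli-like cells, at 1.53 to 3.01 CPM. The annotation holds processed copies of it on chromosome 6 from 37806086 to 37806550 and on chromosome 7 from 4412438 to 4412900. Whether its reads were lost to these copies was not tested, and no level of Atp6v0c is drawn from these values.

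The accessory subunits Atp6ap1 and Atp6ap2, which help to assemble the pump, both lie on the X chromosome, which is silenced in spermatocytes. Atp6ap1 was at 23.8 CPM for WT, 18.3 for KO and 29.7 for KI in early meiotic-like cells (27, 26 and 44 UMIs) and at 0, 0.0617 and 0.178 CPM in cluster 6 (0, 1 and 3 UMIs). In RS-like cells it had 1, 1 and 0 UMIs. Atp6ap2 was at 53.8, 71.1 and 62.7 CPM and then at 0.398, 0.123 and 0.356 CPM. It came back to 7.34, 11.9 and 12.8 CPM in cluster 2 and stood at 0.613, 2.49 and 3.53 CPM in cluster 9, whereas Atp6ap1 stayed at 0 UMIs in cluster 9 of each library.

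The low level of this pair in cluster 6 was shared by X-linked genes at large. Of all 241 X-linked genes compared in WT 98.3% were at least 1.5-fold lower in cluster 6 than in cluster 12, with a median log2 ratio of −4.54, and of the 12239 autosomal genes 45.1%, with a median of −0.38. A gene was compared with at least 20 UMIs over both clusters, so that one at or near 0 in cluster 6 passed through cluster 12 alone and had to differ, and these shares are a description.

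The other V-ATPase subunits were 15 genes. Atp6v1g1, the stalk subunit G of most tissues, had the most UMIs and was at 725 CPM for WT, 724 for KO and 707 for KI in cluster 6 and at 501, 511 and 525 in cluster 9. Its share of the UMIs of all G genes was at least 98.2% in clusters 12, 6, 11, 2, 9 and 8 of each library. Atp6v1f, subunit F of the rotor, went up beside Atp6v1e2, from 233, 233 and 233 CPM in cluster 6 to 654, 530 and 500 CPM in cluster 9. Atp6v1d, subunit D of the rotor shaft, went from 324, 339 and 341 to 33.1, 55.0 and 66.9 CPM, and Atp6v1c1, subunit C, from 96.0, 101 and 100 to 63.2, 40.5 and 54.2 CPM. In WT, 12 of the 15 were compared between RS-like and SP-like cells, and 8 were lower, 3 higher and 1 neither, with a median log2 ratio of −0.97, where 48.0% of all genes were lower and 30.6% higher, with a median of −0.50. The 3 that were higher were Atp6v1f, Atp6v1b1 and Atp6v0b.

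Of the 11 assembly factors and regulators, 6 were lower, 4 higher and 1 neither by the same measure, with a median of −1.70, beside the same 48.0% and 30.6% of all genes. Atp6ap1l, a relative of Atp6ap1, led in UMIs, with 343 CPM after and 377 CPM before the step from SP-like to RS-like cells. Rogdi, a member of the complex that puts V1 and V0 back together, was at 142 and 68.3 CPM, and Oxr1 at 94.6 and 55.0 CPM. Of the 12 transporters of acidic organelles, 9 were compared, and 4 were lower, 3 higher and 2 neither, so that with so few genes neither list is set apart from those shares. Tmem175, a lysosomal cation channel, was at 28.5 CPM in the RS-like class against 68.3 CPM in the SP-like class, and the chloride exchanger Clcn3 at 94.95 and 43.7 CPM.

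Genes whose pattern was most like that of Atp6v1e2 were found by Pearson's r over log2(CPM + 1) of 9 sums, those of SP-like, RS-like and ES-like cells in the 3 libraries, among 6039 genes with at least 50 CPM in 1 sum. They were AC159207.1, 4933432I09Rik, Gm47841, Pln, the phospholamban gene, and 4930578I06Rik, with r from 0.996 to 0.998. Those most like Atp6v1e1 were Lsg1, Tesmin, Pcbp1, Prc1 and Kpnb1, with r from 0.996 to 0.997. The sums of a library share its depth and free RNA, so these values are a description.

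Between genotypes the reference level of all genes was itself shifted. The median log2 ratio over all genes with at least 20 UMIs was 0.26 for KO against WT (13804 genes) and 0.22 for KI against WT (13416 genes) in RS-like cells. With TMM size factors, which weigh down genes of extreme ratio, the medians were −0.0022 and −0.03. The ES markers given above took 39640 CPM of the WT sum against 13160 and 9658 CPM in the mutants, and their part in the shift was not tested. Ratios are given below by CPM, with 1 CPM added on the log2 scale, and the values relative to this median are given where the direction depends on it.

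Atp6v1e2 in RS-like cells was at 569 CPM for WT, 564 for KO and 612 for KI, from 4456, 3013 and 2917 UMIs. The KO level was 0.992 of that of WT (0.946 to 1.04), a log2 ratio of −0.01, and the KI level 1.08 of it (1.03 to 1.13), a log2 ratio of 0.10. Relative to the median of all genes the log2 ratios were −0.28 and −0.11, and with TMM size factors −0.31 and −0.17. So KI was above WT by CPM and below it after TMM scaling, and in neither mutant did the level differ by 1.5-fold. The study reports Atp6v1e2 as significantly down by qRT-PCR in round spermatids isolated from both mutants, scaled to Tex29. That measure has other cells and another reference than the sums here. The clusters of the class parted. In cluster 9 alone the log2 ratios were 0.11 and 0.15, or −0.17 and −0.13 with TMM size factors. In cluster 1, with medians of 1214, 1386 and 1950.5 UMIs per cell, Atp6v1e2 was at 319 CPM (290 to 351.5) for WT, 247 (221 to 275) for KO and 243 (210 to 279.7) for KI, so that both mutants lay below WT with no overlap of the intervals. All 3 levels of cluster 1 were below those of the empty barcodes of their library, 442, 394 and 443 CPM, and the part of free RNA in this difference was not tested. When the libraries were clustered without integration, the ratios in the cells then named RS-like were −1.29 and −1.31. None of the KO and KI cells of cluster 9 then kept that name, and the part of this in the ratios was not tested.

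The counts of the subunits called between genotypes in RS-like cells were small. In KO, 8 of the 10 subunits had at least 20 UMIs over both libraries, of which 0 were at least 1.5-fold lower, 4 higher and 4 neither. Of all genes compared 11.1% were lower and 30.2% higher. Of the 4 that were higher, Atp6v1e1 (9 and 24 UMIs) and Atp6ap2 (10 and 27 UMIs) reached the minimum through KO alone. In KI, 7 were compared, 2 were lower, 2 higher and 3 neither, where 14.9% of all genes were lower and 28.2% higher, so that the share of subunits higher in KI was at that of all genes. The median log2 ratio of the subunits was 0.67 in KO and 0.57 in KI. With TMM size factors 2 subunits were lower and 3 higher in KO and 2 and 2 in KI, and 19.0% of all genes were lower and 18.9% higher in KO, 22.5% and 17.3% in KI.

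Atp6v1a was at 24.8 CPM for WT, 42.9 for KO and 48.2 for KI in RS-like cells, 1.73-fold (1.42 to 2.11) and 1.95-fold (1.60 to 2.37) above WT, with log2 ratios of 0.50 and 0.72 relative to the median of all genes. Both mutants were thus above WT on either scale in the class. Empty barcodes held more Atp6v1a than these cells in each library, at 51.1, 62.9 and 73.7 CPM, in the same order of genotypes. In cluster 1 alone Atp6v1a was at 42.6 CPM (32.2 to 55.3) for WT, 50.7 (39.3 to 64.4) for KO and 43.4 (30.3 to 60.4) for KI, with overlapping intervals, so that the difference rests on cluster 9. Atp6ap2 was at 1.28, 5.05 and 5.66 CPM from 10, 27 and 27 UMIs, 3.96-fold (1.86 to 9.17) and 4.44-fold (2.08 to 10.3) above WT. Atp6v1b2 was at 3.06, 7.67 and 5.03 CPM from 24, 41 and 24 UMIs, and the interval of its KI ratio, 0.894 to 3.02, included 1. Atp6v1e1 was at 1.15, 4.49 and 1.47 CPM from 9, 24 and 7 UMIs. Each of these 4 genes was also at least 1.5-fold higher in SP-like than in RS-like cells of WT, which for Atp6ap2 depends on the cells counted, as its log2 ratio of RS-like to SP-like cells was 0.33 at a resolution of 0.6, 0.34 by marker score, 0.047 with clusters weighted equally and 0.22 without cluster 2. The SP markers held 6591 CPM in RS-like cells of WT, 7573 in KO and 7461 in KI, and whether earlier cells in the class took part in these ratios was not tested.

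Atp6v0a1 was called lower in KI and not in KO, at 8.42 CPM for WT, 5.61 for KO and 3.36 for KI from 66, 30 and 16 UMIs. Relative to WT this was 0.667 (0.418 to 1.04) for KO and 0.398 (0.215 to 0.696) for KI. In cluster 9 it was 0.357 (0.180 to 0.659) and 0.279 (0.127 to 0.550), so the KO value rests on whether cluster 1, the RS-like cells of low UMI totals, is counted. Atp6v1h was at 51.2 CPM for WT, 38.7 for KO and 31.9 for KI, with ratios of 0.757 (0.637 to 0.898) and 0.623 (0.513 to 0.752). Without integration the KI log2 ratios of Atp6v1h and Atp6v0a1 turned from −0.67 and −1.11 to 0.17 and 0.17. Empty barcodes held 13.3, 9.96 and 9.40 CPM of Atp6v0a1, above its RS-like levels and also highest in WT. They held 30.45, 41.9 and 52.9 CPM of Atp6v1h, lowest in WT. The part of free RNA in these ratios was not tested. Atp6v0d1 was at 8.42, 12.9 and 13 CPM, with ratios of 1.53 (1.08 to 2.18) and 1.54 (1.07 to 2.22) that did not reach 1.5-fold with 1 CPM added.

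**Figure D3:**
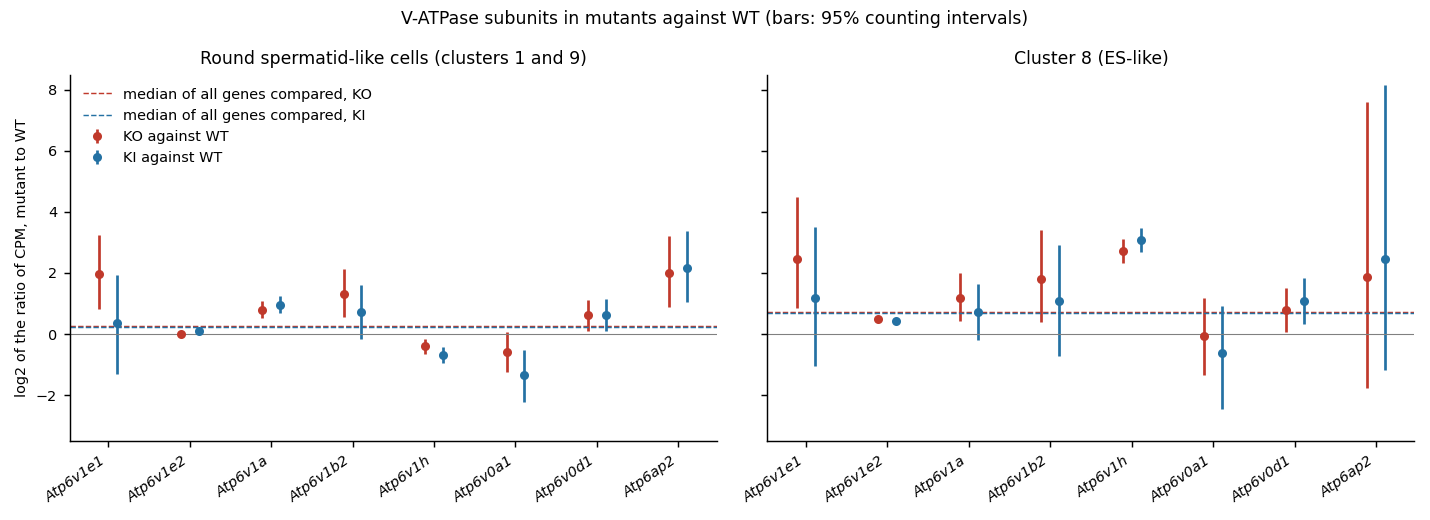
Log2 of the ratio of CPM to WT (y axis, no CPM added) for 8 subunits (x axis) in KO and KI, in RS-like cells (left) and in cluster 8 (right), with 95% counting intervals. Dashed lines are the medians of all genes compared, 0.26 and 0.22 on the left and 0.71 and 0.69 on the right. These medians were taken with 1 CPM added, unlike the points. Atp6v1e2 lay below those lines in all 4 comparisons, and Atp6v1h lay below them in RS-like cells and far above them in cluster 8.

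Of the other subunits 9 were compared in RS-like cells. In KO 1 was lower and 3 higher, and in KI 1 was lower and 2 higher, near the 11.1% and 30.2% of all genes in KO and the 14.9% and 28.2% in KI. The gene that was lower in both was Atp6v0b, a further subunit of the proton-carrying ring, at 63.4 CPM for WT, 26.6 for KO and 13.2 for KI. Atp6v1f was at 609, 451 and 446 CPM and Atp6v1g1 at 464, 478 and 469 CPM. Atp6v1d, at 36.6, 62.5 and 66.5 CPM, and Atp6v0a2, at 2.30, 6.92 and 5.87 CPM, were higher in both. Of the assembly factors 8 were compared, of which 1 was lower and 3 higher in KO and 0 lower and 2 higher in KI. Of the organelle transporters 8 and 7 were compared, of which 1 was lower and 1 higher in KO and 1 lower and 3 higher in KI. With so few genes these counts are not set apart from the shares of all genes.

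Of the acrosome and spermatid genes measured by qRT-PCR beside Atp6v1e2, 6 were looked at. They were chosen for that on these samples, so that their direction is no independent evidence. By qRT-PCR the study reports each of them as significantly down in isolated round spermatids of both mutants. Tssk1, Acrv1 and Eqtn were also markers by which the RS-like class was named. Of Tssk1, Acrv1, Iqcf1, Spata25, Eqtn and Capza3, Iqcf1 was at least 1.5-fold lower in RS-like cells of KO and KI, at 1149 CPM for WT, 743 for KO and 656 for KI. The other 5 were neither lower nor higher by that measure, for example Acrv1, an acrosomal matrix gene, at 1004, 1147 and 1197 CPM and Capza3, a sperm actin-capping gene, at 552, 397 and 419 CPM. Over all 6 the median log2 ratio was 0.03 in KO and −0.11 in KI, below the medians of all genes, 0.26 and 0.22. Of all genes compared 11.1% were lower and 30.2% higher in KO, and 14.9% and 28.2% in KI. With 6 genes the count is not set apart from these shares. A gene called neither by CPM may still differ relative to the median of all genes.

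In cluster 8 WT and the mutants parted. The study reports that germ cells of KO and KI halt at the round spermatid stage. The ES-like name of this cluster thus does not place its mutant cells past that stage. Cluster 8, ES-like cells that also held RS markers, numbered 417 cells for WT, 276 for KO and 111 for KI. Atp6v1e2 was at 360.2 CPM (345 to 376) for WT, 512 (493 to 533) for KO and 481 (458 to 505) for KI there. From cluster 9 to cluster 8 its level went from 619 to 360.2 CPM in WT, from 668 to 512 in KO and from 687 to 481 in KI. The mutants lay above WT by 1.42-fold (1.34 to 1.51) and 1.34-fold (1.25 to 1.43), and relative to the median of all genes the log2 ratios were −0.20 and −0.27. Of all genes compared in cluster 8, 55.5% were at least 1.5-fold higher and 8.04% lower in KO, and 54.1% higher and 8.05% lower in KI, at medians of 0.71 and 0.69.

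Atp6v1h had the largest ratio of the subunits compared in cluster 8. It was at 11.2 CPM for WT, 73.2 for KO and 94.1 for KI from 68, 363 and 314 UMIs, 6.51-fold (5.01 to 8.57) and 8.37-fold (6.42 to 11.1) above WT, or 1.89 and 2.27 on the log2 scale relative to the median of all genes. In cluster 9 the ratios were 0.885 (0.728 to 1.07) and 0.612 (0.488 to 0.761). The level was thus lower in cluster 8 than in cluster 9 in WT and higher in both mutants. Counting cluster 8 as RS-like turned the KI log2 ratio of Atp6v1h in RS-like cells from −0.67 to 0.75, an alternative chosen after seeing the data. Of the 10 subunits, 7 were compared in KO and 5 were higher, and 4 in KI and 3 were higher, while 0 were lower in either. Of all genes 55.5% were higher and 8.04% lower in KO, and 54.1% and 8.05% in KI. With so few subunits the counts are not set apart from these shares.

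Ratios between subunits within a library, which need no scaling, also parted in cluster 8, but with Atp6v1e2 higher in WT than in the mutants, opposite to its CPM. In cluster 9 there were 124 UMIs of Atp6v1e2 per 100 UMIs of Atp6v1g1 for WT (118 to 130), 131 for KO (124 to 139) and 131 for KI (124 to 139). In cluster 8 there were 277 for WT (255 to 300), 132 for KO (124 to 140) and 136 for KI (126 to 146). Per 100 UMIs of Atp6v1f there were 94.7, 126 and 137 in cluster 9 and 171, 97.3 and 96.3 in cluster 8. WT thus held more Atp6v1e2 for each UMI of these V1 partners in cluster 8 than in cluster 9, and the mutants about as much or less.

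The mix of stages within cluster 8 differed too. ES markers held 246100 CPM for WT, 91310 for KO and 90590 for KI, and RS markers 1787, 5048 and 4808 CPM, with all 12 ES and all 11 RS markers detected in each library. Whether cells of the same stage would differ was not tested, and stage and genotype cannot be told apart in this cluster.

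**Figure D4:**
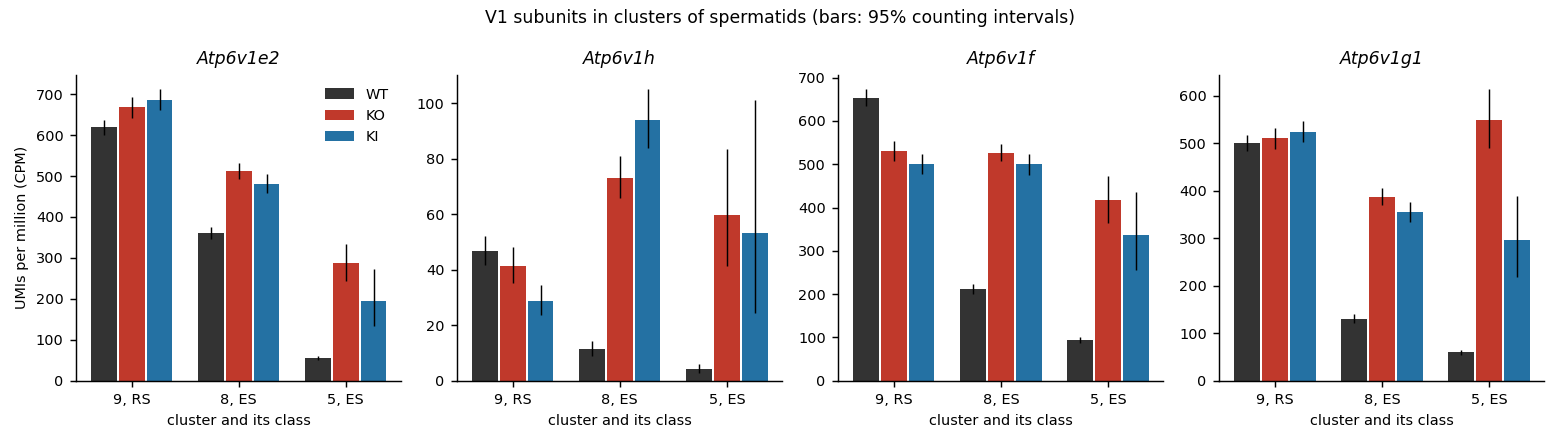
Level in CPM (y axis, from 0) of Atp6v1e2, Atp6v1h, Atp6v1f and Atp6v1g1 in clusters 9, 8 and 5 (x axis) of WT, KO and KI, with 95% counting intervals. In cluster 8 the WT bars are the lowest for all 4 genes, and in cluster 9 Atp6v1h and Atp6v1f are highest in WT.

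In cluster 5, further ES-like cells, the counts of the mutants were thin and their markers differed. Cluster 5 held 814 WT, 188 KO and 85 KI cells with 7710819, 569124 and 169198 UMIs, and Atp6v1e2 was at 54.5 CPM (49.4 to 59.9) for WT, 286 (244 to 334) for KO and 195 (134 to 274) for KI. Empty barcodes, at 394 to 443 CPM, were above all 3. ES markers held 356000 CPM for WT, 38540 for KO and 119000 for KI there, and SP markers 1813, 9515 and 6419 CPM, so that stage and genotype cannot be told apart in this cluster either. The median log2 ratio of all genes was 1.98 in KO and 1.35 in KI in this cluster. In cluster 4, which held 1129 WT, 11 KO and 1 KI cells, WT had 39.95 CPM. From cluster 9 to cluster 5 WT thus went from 619 to 54.5 CPM, and per cell from 11.9 to 0.516 UMIs, while the cells of the mutants in cluster 5 had medians of 1494 and 1105 UMIs against 7858 in WT.

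Before the spermatids, in cluster 6, Atp6v1e1, Atp6v1a, Atp6v1h and Atp6v0a1 lay within 1.5-fold of WT in both mutants. There the median log2 ratio of all genes was −0.04 in KO and −0.03 in KI. The ratios to WT were 0.973 (0.870 to 1.09) in KO and 0.955 (0.855 to 1.07) in KI for Atp6v1e1, 0.879 (0.828 to 0.934) and 0.956 (0.901 to 1.01) for Atp6v1a, and 0.918 (0.845 to 0.999) and 0.996 (0.917 to 1.08) for Atp6v1h. Those of Atp6v0a1 were 0.885 (0.764 to 1.03) and 0.960 (0.832 to 1.11), and both counting intervals of this gene included 1 in cluster 6. Atp6v1e2, still at 2.37 to 7.71 CPM, had ratios of 1.39 (1.003 to 1.93) and 0.426 (0.277 to 0.651). These levels lay under those of Leydig-like cells in KO and KI and of empty barcodes in each library, and the cells of cluster 6 had medians of 29959, 34081 and 78907 UMIs, so that no difference in expression is read from these ratios. In SP-like cells as a whole Atp6v1e2 was at 113 CPM for WT, 73.0 for KO and 65.8 for KI, with ratios of 0.646 (0.612 to 0.681) and 0.581 (0.549 to 0.615), so that both mutants were over 1.5-fold lower. Cluster 2, which held most UMIs of the gene in WT, took 10760924 of the 26485277 UMIs of all genes in SP-like cells for WT, 8567687 of 34245240 for KO and 9047283 of 30851921 for KI, a smaller part in the mutants. By cells it made up 734 of 1723, 605 of 1487 and 277 of 674, and the levels within it were 245, 259 and 217.5 CPM. Within cluster 7, also SP-like, the levels were 129 (114 to 145), 61.1 (49.0 to 75.3) and 18.0 CPM (10.3 to 29.2), with no overlap. The part of the mix of clusters in the SP-like ratios was not tested.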

How the data were processed

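Cells of mouse testes were measured by droplet single-cell RNA-seq (10x Genomics, 3′ ends), with 1 library per genotype. The deposited files hold UMI counts per gene and barcode, which the authors made with Cell Ranger against mm10, with no normalization (the submitters' processing notes give version 2.1.1, whereas the file headers name a later release). Every barcode with a UMI was deposited, so cells were called here: barcodes above a limit set by UMI totals, plus those with at least 500 UMIs whose profile differed from that of empty barcodes (false discovery rate of 0.01, 10000 simulated barcodes). At most 20000 barcodes under the limit, those of highest totals, were compared in a library. KO reached this number, so some of its barcodes near 500 UMIs may not have been compared, while 10991 were compared in WT and 9158 in KI. Cells with at least 500 genes and at most 10% mitochondrial UMIs were kept. Libraries were integrated with Seurat 5.3.0 and sctransform 0.4.2 on 2000 genes and 100 components, with the V-ATPase genes left out, and clustered by Leiden at a resolution of 0.3 with 20 neighbours. Clusters were named from marker lists. Scrublet marked 148, 4 and 5 cells of WT, KO and KI as doublets. In KO and KI this is too few for the caller to have worked, and these cells were kept.

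Within each library, UMIs of all cells in a class were added up and divided by their total to give CPM. A gene was compared with at least 20 UMIs over both sums and called higher or lower at 1.5-fold, with 1 CPM added. Beside this, TMM size factors (edgeR 4.0.16) and median-of-ratios size factors (DESeq2 1.42.0) were used, for scaling alone. The ratio and interval code was tested on simulated data. The subunits and the lists were chosen with earlier results of these data known. The text names all 10 subunits, their isoform partners except some genes of subunit a, the 4 other subunits of most UMIs, 2 to 4 genes of most UMIs of each further list and the 5 genes of most similar pattern. Atp6v0b and the genes called in 1 direction in a list were named after their values were seen. One gene of these lists is not reported here. Other alternatives were the count minimum, the CPM added, the fold, filters on cells, the clustering, the naming, equal weights for clusters and removal of empty-barcode RNA. Leaving out cluster 1, counting cluster 8 as RS-like and leaving out cluster 2 were chosen after seeing the data.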

Additional observations from a re-analysis of the deposited data

How the results depend on the processing

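The log2 ratio of Atp6v1e2 in RS-like cells of KO against WT, −0.01, was −0.31 with TMM and −0.35 with median-of-ratios size factors, 0.083 with cells called by UMI totals alone, −1.29 without integration, 0.0585 with each cell named by its marker score, 0.11 without cluster 1 and 0.17 with cluster 8 counted as RS-like. The KI ratio, 0.10, was −0.17 with TMM and −0.18 with median-of-ratios size factors, −1.31 without integration, −0.011 at a Leiden resolution of 0.6, −0.013 with clusters weighted equally and 0.22 with cluster 8. Without integration, the 177 KO and 83 KI cells of cluster 9 fell among unnamed cells (156 and 74) and ES-like cells (21 and 9), and 336 WT cells stayed RS-like. SP-like cells parted by library too, with clusters of 1 WT, 607 KO and 248 KI cells, of 308, 1 and 0 and of 682, 0 and 0. A further SP-like cluster held 261, 600 and 69 cells. Genotype and library cannot be told apart here. The WT share of Atp6v1e2 among E subunit UMIs, 99.8%, was 99.95% by UMI totals, 99.45% at a resolution of 0.6, 99.48% by marker score, 99.34% with equal weights, 100% with 10% of empty-barcode RNA taken out and 99.98% without cluster 1.

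The count of subunits lower in KO, 0, was 2 with TMM and 2 with median-of-ratios size factors, and 1 with cells called by UMI totals, with more than 1000 genes per cell, under 5% mitochondrial UMIs, without integration, by marker score, with equal weights and without cluster 1. The share of all genes lower in KO, 11.1%, was 19.0% with TMM, 20.4% with median-of-ratios size factors and 17.2% without integration, and ran down to 4.34% at a fold of 2. The count of subunits lower in KI, 2, was 1 at a fold of 2, at a resolution of 0.6, by marker score and with cluster 8. The share of all genes lower in KI ran from 7.25% at a fold of 2 to 23.5% without integration. The count of subunits higher in KO, 4, was 2 by UMI totals and without cluster 1 and 1 by marker score, and between 3 and 5 otherwise. That in KI, 2, was 4 with 0.1 CPM added, by UMI totals, under 5% mitochondrial UMIs and with empty-barcode RNA taken out, 5 with cluster 8, and 1 at a fold of 2, by marker score and with equal weights. The share of all genes higher ran from 13.6% at a fold of 2 to 49.8% without integration in KO. In KI it ran from 11.5% to 46.9% under the same settings and was 37.1% with cluster 8. With so few subunits the counts are not set apart from these shares. The WT log2 ratio of Atp6v1e2 in RS-like against SP-like cells, 2.32, was 2.57 with TMM, 2.61 with median-of-ratios size factors, 2.46 by UMI totals, 2.42 without integration, 3.54 at a resolution of 0.6, 3.70 by marker score, 2.49 with equal weights, 2.92 with empty-barcode RNA taken out, 2.44 without cluster 1 and 4.59 without cluster 2.

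Of the values of these main comparisons under the alternatives, leaving aside the counts of subunits higher, 48 stayed within their counting interval or, for counts, within 1.5 times, and 42 moved beyond. For Atp6v1e2 the sign turned in both mutants as given above, from values under 1.5-fold. Among the values called at 1.5-fold the sign turned for Atp6v1h in KI against WT (0.17 without integration, 0.34 by marker score, 0.75 with cluster 8), for Atp6v0a1 in KI against WT (0.17 without integration) and for Atp6ap2 in RS-like against SP-like cells of WT (0.33 at a resolution of 0.6, 0.34 by marker score, 0.047 with equal weights, 0.22 without cluster 2). The causes were not tested. Of the remaining values of single genes under these alternatives, 250 stayed within their counting interval and 57 moved beyond it with the same sign. No paired analysis was possible because each genotype had 1 library, and for the same reason no library could be left out. Depth limits Atp6v0c, Atp6ap1 and, in RS-like cells, Atp6v1e1, for which differences between genotypes were not detectable at this depth or rest on at most 24 UMIs.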
